A study of Oryctolagus cuniculus with 24 samples.

Results

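PMA-Ionomycin stimulation of rabbit peripheral blood mononuclear cells (PBMCs) for 24 hours (T24) is described here across all genes of the array, against mock-stimulated PBMCs collected at T24. The members were chosen by the labels alone: the 4 PMA-Ionomycin arrays and the 4 mock arrays of T24, 8 of the 24 arrays of the series. PBMCs came from rabbits 1, 2, 4 and 5, adult female New Zealand White animals by the study's methods, were separated from blood on a density gradient and were cultured in RPMI medium with heat-inactivated fetal bovine serum. The PMA-Ionomycin cultures received 10 ng/mL PMA and 1 µg/mL ionomycin, and the mock cultures a buffer without these agents. The 4 h cultures (T4) of both kinds and the T24 cultures with 1 µg/mL LPS, each from the same 4 rabbits, are used only to show where the response at T24 differs.

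PMA is a phorbol ester that takes the place of diacylglycerol and activates protein kinase C and the Ras activators of lymphocytes, and ionomycin is an ionophore that raises intracellular calcium. Given together they bypass the antigen receptor and drive the NFAT, AP-1 and NF-kappaB transcription factors, and they are known for inducing cytokines and division in T cells. PBMCs hold T, B and NK lymphocytes, monocytes and a few dendritic cells, and monocytes in culture can adhere and turn into macrophage-like cells.

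Each culture was measured on a one-colour Agilent array of 60-base probes. The level of a gene is the log2 median signal of its probes relative to the median of the array, so that an increase of 1 is a doubling, and a difference between levels is given as log2 fold change (log2 FC), ± its standard error where one is printed. A gene was called up-regulated or down-regulated when its adjusted p was under 0.05 by limma over 28884 genes or identifiers, 9570 of which carry a gene symbol. A gene was taken as well above background on an array when most of its probes were, and where none of the 4 arrays of a group met this, and no single probe did on all of them, its level there is only a limit and the change is given as at least a given fold. Between 56.7 and 61% of spots were well above background on the PMA-Ionomycin arrays and between 57.5 and 61.2% on the mock arrays. Since no background was subtracted, the median signal understates the changes of dim genes.

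The mock cultures of T24 differed between rabbits more than the stimulated ones in genes of monocytes, B cells and inflammation, and the culture of rabbit 5 stood apart. Its summed level of 18 chemokines was 6.79, against 9.56 to 11.56 in the other 3 mock cultures, and its summed level of 15 monocyte and macrophage markers was 9.20, against 9.97 to 10.30. Its summed level of 10 B cell markers was in contrast 9.88, against 7.74 to 8.43 in the others. The lists of chemokines, innate cytokines, monocyte markers and B cell markers are therefore also given without rabbit 5.

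The probe sequences of a few genes that carry the findings are shown first. CSF2, the granulocyte-macrophage colony-stimulating factor, had one of the largest rises. The CSF2 probe shown lies at chr3:15145961-15146020 (oryCun2, plus strand), and capitals mark the 54 bases in it that all 5 CSF2 probes share. BCO2, a carotenoid-cleaving enzyme of mitochondria, rose from only a limit in mock and is measured by 1 probe (chr1:104154564-104154623, minus strand).
CSF2: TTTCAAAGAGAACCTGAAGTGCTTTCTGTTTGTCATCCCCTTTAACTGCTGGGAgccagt
BCO2: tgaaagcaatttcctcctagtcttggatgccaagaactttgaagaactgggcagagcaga
RLA-DR-ALPHA, the alpha chain of the class II MHC molecule DR, is among the largest falls, and its probes lie apart on chromosome 12 (chr12:23072631-23072690 and chr12:23070407-23070466, plus strand) and fell by 4.70 and 4.54 on the log2 scale.
RLA-DR-ALPHA, first probe: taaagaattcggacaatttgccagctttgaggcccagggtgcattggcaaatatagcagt
RLA-DR-ALPHA, second probe: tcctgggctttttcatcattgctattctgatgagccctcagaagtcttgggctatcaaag
S100A8 and MRP-8 are names under which the files list probes of the same stretch of chromosome 13 (chr13:39004760-39004960 and chr13:39004906-39004962, plus strand, as far as the files place them); capitals mark the 59 bases that these probes share, so that their falls are not independent results.
S100A8: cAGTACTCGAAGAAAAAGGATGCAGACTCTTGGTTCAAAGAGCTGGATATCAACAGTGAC
MRP-8: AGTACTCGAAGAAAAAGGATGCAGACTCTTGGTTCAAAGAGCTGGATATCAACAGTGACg

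For 3 further genes the probes themselves decide the reading. The probes of S100A9, the partner of S100A8 in calprotectin, are reverse complements of each other over 56 bases, marked by capitals. The first (chr13:39032371-39033712, minus strand) fell by 5.90 on the log2 scale and the second (chr13:39032375-39033716, plus strand) by 0.60.
S100A9, first probe: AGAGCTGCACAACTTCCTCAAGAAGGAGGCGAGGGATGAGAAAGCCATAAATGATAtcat
S100A9, second probe: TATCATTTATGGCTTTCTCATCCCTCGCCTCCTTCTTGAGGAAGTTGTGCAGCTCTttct
The probes of IFNG, interferon-gamma of T and NK cells, share no run longer than 7 bases and moved in opposite directions.
IFNG, first probe: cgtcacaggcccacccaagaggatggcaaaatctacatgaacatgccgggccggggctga
IFNG, second probe: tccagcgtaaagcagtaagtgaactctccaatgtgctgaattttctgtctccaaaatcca
The first (chr12:101894325-101894384, minus strand) was at 7.40, 6.74, 6.45 and 5.73 in the mock cultures of rabbits 1, 2, 4 and 5 and at 5.37, 5.33, 5.31 and 4.97 after PMA-Ionomycin, a log2 FC of -1.34. The second, which the authors added in 3 spots and which the files do not place, was at -1.10, -1.10, -0.79 and -1.33 in mock, above background on no array, and at 3.43, 3.18, 2.58 and 1.90 after PMA-Ionomycin, a rise from what is only a limit. The groups did not overlap on either probe, and the IFNG values below average both. The B cell marker MS4A1 had probes at log2 FC -0.70, -3.36 and -3.83. Among the 1730 called genes with a symbol and more than 1 probe, 28 had probes that changed in both directions.

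PMA-Ionomycin changed the level of 9708 of 28884 genes at T24 (33.6%): 6389 were up-regulated (22.1%) and 3319 down-regulated (11.5%). The median log2 FC over all genes was 0.03. Changes of at least 2-fold were called for 3263 genes upward and 1447 downward, and changes of at least 16-fold for 59 and 49. The level moved the same way in 4 of 4 rabbits for 6208 of the up-regulated and 3129 of the down-regulated genes, and 9286 genes (32.1%) had groups that did not overlap, 8463 of them called. Above background on all 4 stimulated arrays but only a limit in mock were 289 genes, and the reverse was found for 238. The balance of the directions depended on the scaling: 34.2% of the called genes were down-regulated here, 47.2% after quantile normalization, 49% in the deposited log2 table and 53.7% with the processed signal, for which the median of all genes moved to -0.26. Fewer cells of a type and less RNA per cell cannot be told apart in these bulk samples.

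**Figure D1:**
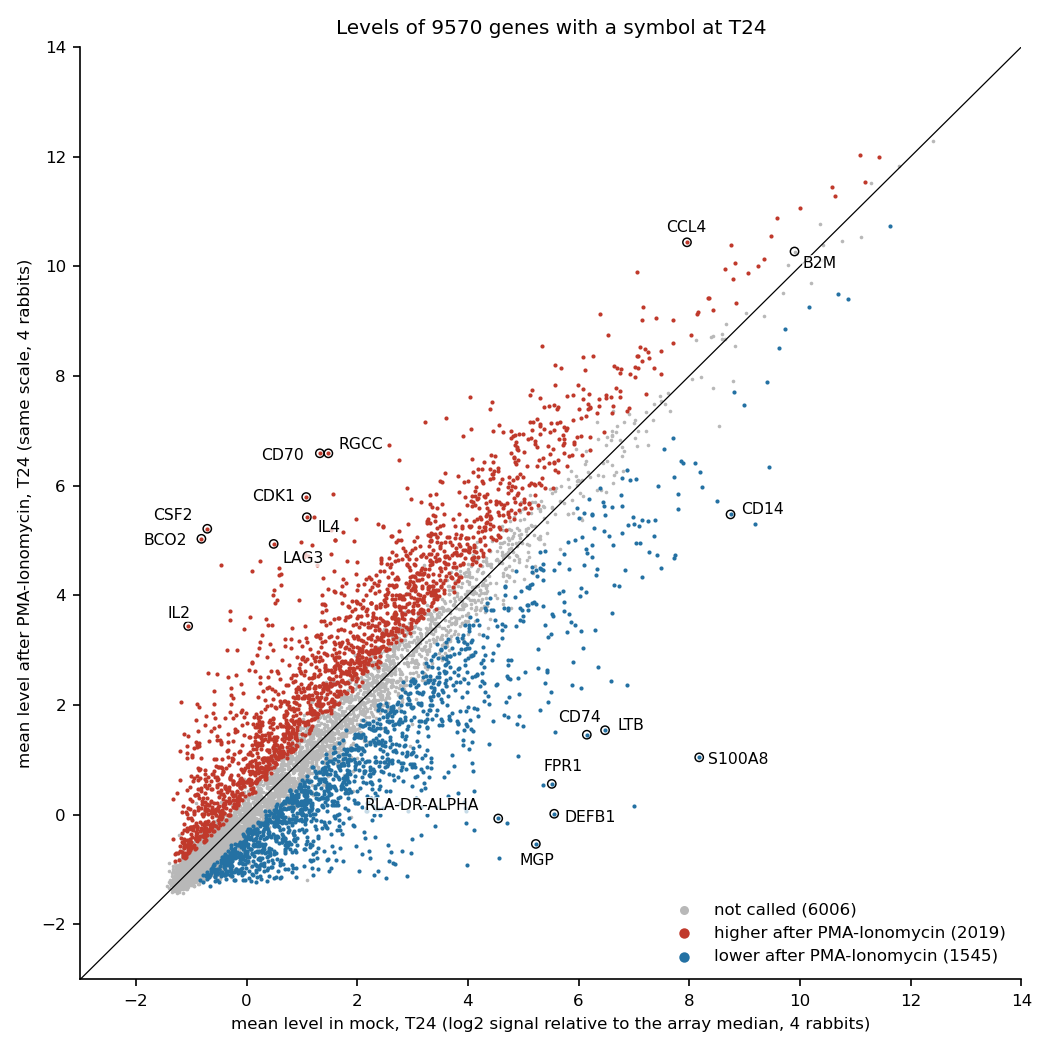
Mean level of the 9570 genes with a symbol in mock (x axis) and after PMA-Ionomycin at T24 (y axis), as log2 signal relative to the array median, means of 4 rabbits; the line marks equal levels, and red and blue points are the 2019 up-regulated and 1545 down-regulated genes. CSF2, BCO2 and IL2 lie at the low end of the mock axis, and S100A8 farthest below the line among the labelled genes.

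T cell cytokines were among the largest rises. CSF2 was at -0.74, -0.38, -0.63 and -1.09 in the mock cultures of rabbits 1, 2, 4 and 5 (mean -0.71 ± 0.30, SD, n = 4) and at 5.90, 4.44, 5.15 and 5.37 after PMA-Ionomycin (mean 5.21 ± 0.60), a rise of 60.6-fold (log2 FC 5.92 ± 0.43, adjusted p = 1.38e-10). In mock it was above background on 1 of 4 arrays only, and no stimulated culture came near the mock range. IL2, the growth factor of T cells, was above background in no mock culture and at 3.78, 3.54, 3.28 and 3.15 after PMA-Ionomycin, at least 22.4-fold higher (adjusted p = 1.45e-14). IL4, the main cytokine of Th2 cells, was at 0.77, 0.59, 0.95 and 2.05 in mock and at 5.01, 5.48, 5.68 and 5.53 after stimulation (log2 FC 4.33 ± 0.39, adjusted p = 4.02e-09). These genes were separated from mock in every rabbit.

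TNF, made by T cells and by monocytes, was at 6.49, 6.08, 4.53 and 3.50 in mock and at 8.41, 8.20, 7.73 and 6.63 after stimulation (log2 FC 2.59 ± 0.64, adjusted p = 0.00222), and its lowest stimulated culture lay just above its highest mock culture. IL13, of the Th2 group, was at least 4.91-fold higher, and IL17A, of the Th17 group, at least 4.73-fold higher. IL10, an anti-inflammatory cytokine, rose from 1.76, 1.0, -0.20 and -1.08 to 1.36, 1.83, 2.48 and 3.56 (log2 FC 1.94 ± 0.65, adjusted p = 0.0222), and its groups overlapped. The rise of IL10 came mostly from rabbits 4 and 5: it was lower after stimulation in rabbit 1. The call was lost without rabbit 4 (1.69, adjusted p = 0.149), without rabbit 5 (1.04, adjusted p = 0.231) and under quantile normalization (1.66, adjusted p = 0.0685). IFNG had a log2 FC of 1.26 ± 0.23, adjusted p = 0.000131 as the average of both probes, which moved in opposite directions, and was not called after normexp and quantile normalization (0.49, adjusted p = 0.0757). This average describes neither probe: the placed probe fell, and the probe added by the authors rose from only a limit in mock. The paper reports IFNG as up-regulated at T24, on the array and by qRT-PCR. Which of the probes measures the IFNG transcript was not tested. IL9 had a log2 FC of 1.10.

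Of 18 T cell cytokines tested, 11 rose and 2 fell, with a median log2 FC of 1.17, beside 22.1% and 11.5% of all genes. After normexp and quantile normalization 8 rose, with a median of 0.63, and with the processed signal 11 rose, with a median of 1.98. LTB, the lymphotoxin subunit that resting lymphocytes make, fell from 5.73, 6.22, 6.29 and 7.68 to 1.73, 2.02, 1.72 and 0.68 (log2 FC -4.94 ± 0.44, adjusted p = 3.7e-09), and TGFB1, a suppressive cytokine, had a log2 FC of -0.60. The call of TGFB1 was lost without rabbit 2, without rabbit 4 and without rabbit 5 (-0.48, adjusted p = 0.234 without rabbit 5). IL5 and IL26 were above background in neither group, and the other members without a call, LIF, IL21 and IL22, had log2 FC between 0.12 and 0.60.

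**Figure D2:**
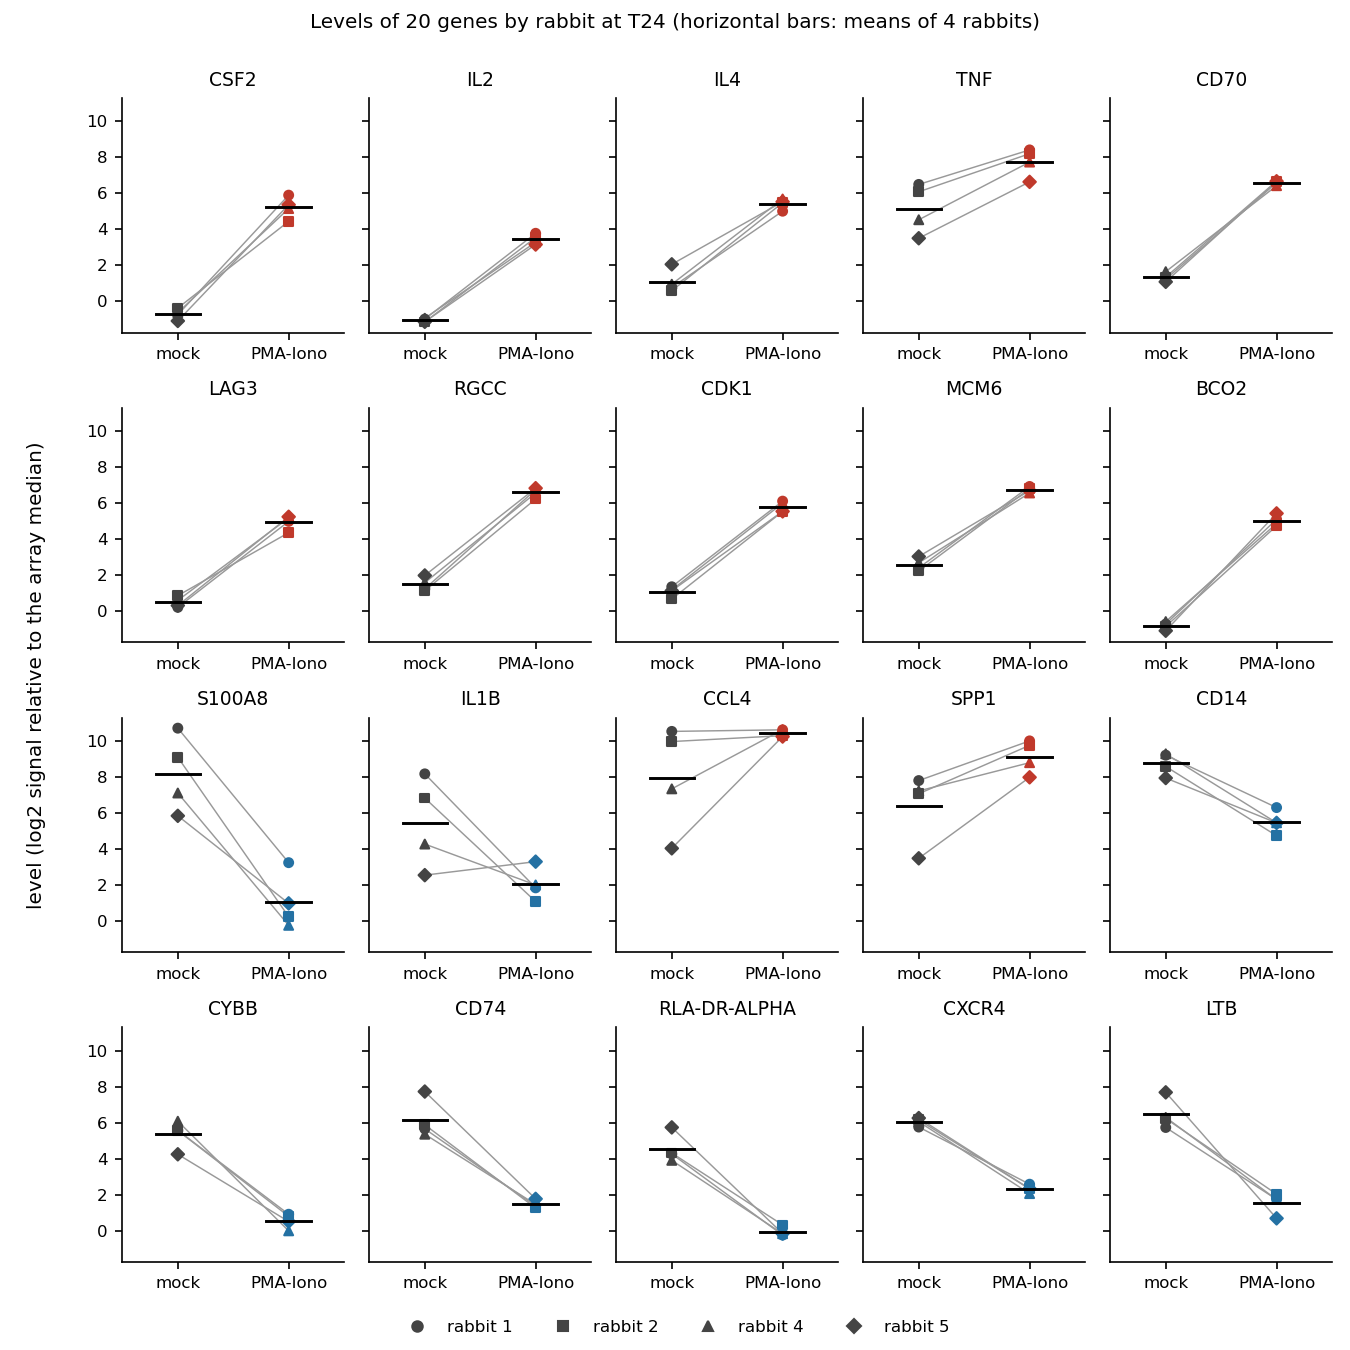
Level of 20 genes in each rabbit at T24 (y axis, log2 signal relative to the array median) in mock and after PMA-Ionomycin; lines join the cultures of 1 rabbit, symbols mark rabbits 1, 2, 4 and 5, and bars are means. For CSF2, IL2, CD70, CDK1 and BCO2 every line rises and the cultures of a group lie within 2 log2 units of each other, whereas S100A8, IL1B, CCL4 and SPP1 were spread widely in mock.

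Surface molecules of activated T cells rose with the cytokines. CD70, the ligand of the costimulatory receptor CD27, was at 1.23, 1.34, 1.65 and 1.08 in mock and at 6.59, 6.68, 6.42 and 6.67 after stimulation, 38.4-fold higher (log2 FC 5.26 ± 0.33, adjusted p = 1.27e-11). LAG3, an inhibitory receptor that binds class II MHC, was at 0.21, 0.86, 0.59 and 0.31 and then at 4.98, 4.36, 5.17 and 5.24 (log2 FC 4.45 ± 0.24, adjusted p = 1.81e-12). CTLA4, the inhibitory competitor of CD28, went from 0.40, 0.72, 0.49 and -0.20 to 3.65, 3.44, 3.50 and 3.68 (log2 FC 3.21 ± 0.17, adjusted p = 1.26e-12). In all 3 the stimulated cultures lay close together and well apart from mock.

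FASLG, the death ligand of cytotoxic and activated T cells, was at -0.20, -0.40, -0.06 and -0.52 in mock and at 3.76, 3.52, 3.83 and 3.77 after stimulation (16.2-fold, log2 FC 4.02 ± 0.18, adjusted p = 1.23e-13). Its receptor FAS rose as well, with a log2 FC of 1.99 ± 0.31, adjusted p = 1.62e-05. Of 27 activation and costimulation molecules, 12 rose (44.4%, beside 22.1% of all genes) and 4 fell (14.8%, beside 11.5%), with a median log2 FC of 0.27. Among the further risers were the TNF receptor family members TNFRSF12A (log2 FC 1.97), TNFRSF9, also named 4-1BB (1.59), and TNFRSF25 (1.31). The members that fell were SLAMF6 (-1.54), TNFSF8 (at least 2.85-fold), CD274, which is PD-L1 (-1.15), and CD38 (-1.10). The mock level of CD274 was 2.09 in rabbit 5 against 4.06 to 4.45 in the others, and its call was lost without rabbit 1 (-0.87, adjusted p = 0.242), 2 or 4; that of CD38 was lost without rabbit 5 (-0.77, adjusted p = 0.11). CD28, the receptor of the primary costimulatory signal, was above background on no array of either group.

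Among lymphocyte transcription factors, a few rose steeply and 14 of 27 were not called. ZBTB32, a repressor induced in activated lymphocytes, was at -0.91, -0.56, -0.18 and -0.19 in mock and at 4.50, 4.08, 4.69 and 4.97 after stimulation (log2 FC 5.02 ± 0.30, adjusted p = 9.44e-12). STAT4, which transmits the IL-12 signal, went from 1.31, 2.11, 1.67 and 1.27 to 5.28, 5.05, 5.07 and 4.66 (log2 FC 3.42 ± 0.26, adjusted p = 2.64e-10). BATF, an AP-1 family partner of IRF4, had a log2 FC of 2.91 ± 0.28, adjusted p = 1.24e-08. In these 3 genes every stimulated culture was above every mock culture.

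IKZF3, the Ikaros family member Aiolos, fell from 2.58, 2.93, 2.57 and 4.96 to 0.67, 0.60, 1.10 and 1.15 (log2 FC -2.38 ± 0.48, adjusted p = 0.000327); its mock level was highest in rabbit 5. Of the 27 members, 8 rose (29.6%) and 5 fell (18.5%), with a median of -0.03, beside 22.1% and 11.5% of all genes. With the processed signal, 10 members were called lower.

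Some immediate early genes that PMA-Ionomycin is known for were close to mock at this time. FOS had a log2 FC of 0.17 and EGR1 of 0.10, neither called, and JUN, the AP-1 partner of FOS, fell (-1.14 ± 0.27, adjusted p = 0.00154). What still rose were NR4A2, an orphan nuclear receptor (-0.28, -0.91, -0.58 and -0.77 in mock, 1.68, 1.62, 1.38 and 1.46 after stimulation, log2 FC 2.17 ± 0.24, adjusted p = 1.02e-07), its relative NR4A3 (1.59), MYC (1.61) and the feedback phosphatases DUSP4 (2.03 ± 0.37, adjusted p = 9.14e-05) and DUSP5 (1.13). RGCC, a regulator of the cell cycle that binds CDK1, was the largest riser of this list, from 1.23, 1.13, 1.58 and 1.98 to 6.74, 6.23, 6.56 and 6.83 (log2 FC 5.11 ± 0.27, adjusted p = 1.04e-12). The protein kinase C isoforms, the targets of PMA, were partly lower: PRKCD (-1.85), PRKCB (-1.21) and PRKCH (-0.89) fell, and RASGRP1, a Ras activator that binds PMA, was not called (-0.20). The AP-1, EGR, NR4A and ERK feedback list also holds RGCC, RASGRP1 and the protein kinase C isoforms. Over its 29 genes, 12 rose (41.4%) and 4 fell (13.8%), beside 22.1% and 11.5% of all genes, median 0.17. The falls were JUN, PRKCD, PRKCB and PRKCH. With the rabbit as a block 7 fell, as in the deposited table and without rabbit 5, and the median turned to -0.08 with the processed signal.

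NFKBIZ, an atypical inhibitor that binds nuclear NF-kappaB, was at 3.47, 2.96, 2.13 and 2.98 in mock and at 1.16, 1.12, 1.01 and 0.98 after stimulation (log2 FC -1.82 ± 0.38, adjusted p = 0.000489). NFKBIA, the classical inhibitor, had a log2 FC of -1.51 ± 0.40, adjusted p = 0.0039, but the fall was not called without rabbit 1 (-1.33, adjusted p = 0.0616), and the mock level was 7.88 in rabbit 5 against 9.45 to 10.17 in the others. NFKBID, a further nuclear inhibitor (1.27 ± 0.25, adjusted p = 0.000215), and the subunit REL (1.01) rose. Of 13 genes of the NF-kappaB system, 3 rose (23.1%, near the 22.1% of all genes) and 5 fell (38.5%, beside 11.5%), with a median of -0.57; without rabbit 1, 3 fell.

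Genes of DNA replication and mitosis rose almost as a block. Of 43 DNA replication genes, 40 rose and none fell, with a median log2 FC of 2.33; of 57 mitosis genes, 52 rose and none fell, with a median of 1.91, beside 22.1% of all genes called higher. CDK1, the kinase that drives entry into mitosis, was at 1.35, 0.67, 1.17 and 1.13 in mock and at 6.11, 5.54, 5.99 and 5.54 after stimulation, 26.2-fold higher (log2 FC 4.71 ± 0.28, adjusted p = 7.4e-12). Its partner cyclin B1, CCNB1, went from 1.82, 0.97, 1.51 and 1.94 to 6.33, 5.45, 6.01 and 5.62 (log2 FC 4.29 ± 0.33, adjusted p = 3.08e-10). For both genes the stimulated cultures were several log2 units above every mock culture.

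The condensin subunits NCAPG (4.38 ± 0.25, adjusted p = 3.29e-12) and NCAPG2 (3.90 ± 0.29, adjusted p = 2.54e-10), which compact chromosomes, and MKI67, the proliferation marker Ki-67 (3.66 ± 0.29, adjusted p = 6.04e-10), rose alike. On the replication side, ORC6 of the origin recognition complex was at 0.19, -0.11, 0.19 and 0.14 in mock and at 4.71, 4.45, 4.40 and 4.20 after stimulation (log2 FC 4.34 ± 0.21, adjusted p = 4.61e-13). MCM6 of the replicative helicase went from 2.40, 2.23, 2.68 and 3.03 to 6.92, 6.80, 6.56 and 6.69 (log2 FC 4.16 ± 0.24, adjusted p = 6.05e-12). TYMS, which makes thymidylate (3.78 ± 0.20, adjusted p = 1.26e-12), RFC4 of the clamp loader (3.70 ± 0.22, adjusted p = 7.21e-12) and PCNA, the sliding clamp (3.20 ± 0.17, adjusted p = 1.11e-12), also rose in all 4 rabbits. The members without a call were ORC5, E2F3 and RPA1 in replication, and MYBL2, RACGAP1, KIF20A, CDC25C and STIL in mitosis, with log2 FC between -0.56 and 0.53. Under quantile normalization 1 mitosis gene was called lower. Above background on all stimulated arrays and on no mock array were 6 of the 43 replication genes, among them the loader CDC6 (at least 5.23-fold), and 8 of the 57 mitosis genes, among them SKA1 of the kinetochore (at least 7.07-fold). Of all 9570 genes with a symbol, 111 were in this state.

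Genes of ribosome production rose in a similar share. Of 45 ribosome biogenesis genes, which make and assemble pre-ribosomes in the nucleolus, 43 rose (95.6%, beside 22.1% of all genes) and none fell, with a median log2 FC of 1.68. NOP58, of the box C/D particles that modify ribosomal RNA, was at 5.39, 5.54, 5.82 and 5.57 in mock and at 8.21, 8.59, 8.04 and 7.97 after stimulation (log2 FC 2.62 ± 0.21, adjusted p = 6.98e-10). LYAR (2.56 ± 0.17, adjusted p = 3.32e-11), MRTO4 (2.52 ± 0.27, adjusted p = 7.11e-08) and WDR12 (2.48 ± 0.17, adjusted p = 6.64e-11) rose likewise, and GNL3L (0.35) and NOL9 (0.40) were not called, but were with the rabbit as a block (adjusted p = 0.0451 and 0.029 by limma). The ribosomal proteins themselves moved less: 7 of 15 rose (46.7%) and none fell, median 0.29, with RPS25 at 1.30 ± 0.16, adjusted p = 3.91e-07 and RPL18 at 1.07 ± 0.13, adjusted p = 6.82e-07.

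Chaperones and the proteasome followed. HSPD1, the mitochondrial chaperonin, was at 4.19, 4.12, 4.14 and 3.67 in mock and at 7.75, 7.61, 7.66 and 7.46 after stimulation (log2 FC 3.59 ± 0.17, adjusted p = 2.93e-13), and its cofactor HSPE1 had a log2 FC of 2.84 ± 0.19, adjusted p = 4.16e-11. The cytosolic chaperonin subunits TCP1 (2.10), CCT2 (2.08) and CCT8 (2.05) rose as well. In all, 15 of 23 chaperones rose (65.2%, beside 22.1% of all genes) and 1 fell, HSPBAP1 (-0.62; 4.35%, beside 11.5%), with a median of 1.33. Of 35 proteasome genes 19 rose (54.3%) and none fell (median 0.83; 14 rose under quantile normalization, median 0.36), led by the assembly chaperone PSMG1 (1.85 ± 0.12, adjusted p = 5.08e-11) and the base ATPase PSMC6 (1.75 ± 0.16, adjusted p = 5.2e-09).

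Anabolic metabolism rose selectively. Of 17 genes of serine, one-carbon and nucleotide synthesis, 13 rose (76.5%, beside 22.1% of all genes) and 1 fell (5.88%, beside 11.5%), with a median log2 FC of 1.99. GMPS, which makes GMP, was at 3.93, 4.16, 4.21 and 3.94 in mock and at 7.34, 6.92, 6.99 and 6.90 after stimulation (log2 FC 2.98 ± 0.14, adjusted p = 2.17e-13). PSAT1 of serine synthesis (3.28 ± 0.30, adjusted p = 5.88e-09), MTHFD1 of the folate cycle (3.23 ± 0.26, adjusted p = 8.07e-10) and GART of purine synthesis (2.79 ± 0.16, adjusted p = 3.57e-12) rose with it, and PHGDH, the first step of serine synthesis, was at least 4.46-fold higher. ADSS2, which leads from IMP to AMP, fell (-1.54).

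Cholesterol synthesis was called higher for 9 of 14 genes (64.3%, beside 22.1% of all genes) and lower for none (median 0.62; 6 higher with the processed signal, in the deposited table and without rabbit 1), with ACAT2 at 1.60 ± 0.30, adjusted p = 0.000135 and SQLE, squalene epoxidase, at 1.34 ± 0.19, adjusted p = 3.56e-06. Among 16 amino acid and nutrient transporters 8 rose (50%) and 4 fell (25%), beside 22.1% and 11.5% of all genes. SLC7A5, the large neutral amino acid transporter, went from 5.23, 4.68, 4.13 and 3.67 to 6.81, 6.41, 6.71 and 6.32 (log2 FC 2.14 ± 0.36, adjusted p = 4.66e-05), while its relative SLC7A7, of monocytes and macrophages, fell from 4.80, 4.66, 4.08 and 4.56 to 2.07, 1.97, 2.73 and 2.76 (log2 FC -2.14 ± 0.35, adjusted p = 2.6e-05). The transferrin receptor TFRC had a log2 FC of -0.25, not called, and without rabbit 1 or rabbit 2, 2 transporters were lower in place of 4.

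Glycolysis genes showed no common direction, with 5 of 16 higher (31.2%, beside 22.1% of all genes) and 6 lower (37.5%, beside 11.5%) and a median of -0.11. PFKP, the platelet phosphofructokinase (1.71 ± 0.28, adjusted p = 2.75e-05), and the lactate transporter SLC16A1 (1.37 ± 0.17, adjusted p = 6.76e-07) rose. TKT (-1.69 ± 0.28, adjusted p = 3.9e-05) and PGD (-1.59 ± 0.27, adjusted p = 3.98e-05), both of the pentose phosphate pathway, and the lactate exporter SLC16A3 (-1.34) fell. The split was 3 higher and 7 lower under quantile normalization and with the processed signal, and 4 higher and 3 lower without rabbit 2.

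Some innate cytokines and chemokines, among them IL1B and CCL4, were already high in several mock cultures, and the change of these genes depended on the rabbit. IL1B, the central inflammatory cytokine, was at 8.16, 6.82, 4.26 and 2.54 in the mock cultures of rabbits 1, 2, 4 and 5 and at 1.83, 1.07, 1.99 and 3.29 after PMA-Ionomycin (log2 FC -3.40 ± 0.77, adjusted p = 0.00105). It fell in rabbits 1, 2 and 4 and was higher after stimulation in rabbit 5, so that the groups overlapped, and without rabbit 2 the log2 FC was -2.62 (adjusted p = 0.0509). IL6 was at 4.09, 4.13, 1.17 and 0.29 in mock and at 4.51, 4.84, 4.49 and 4.50 after stimulation (log2 FC 2.16 ± 0.72, adjusted p = 0.0222), and without rabbit 5 at 1.48 (adjusted p = 0.137). The call of IL6 was also lost without rabbit 4 (1.775, adjusted p = 0.127 by limma) and under quantile normalization (1.688, adjusted p = 0.0868). The same held after normexp, with only the 8 arrays of the comparison and with array weights. The 4 stimulated cultures were close together for IL6, and the change was largest in rabbits 4 and 5, whose mock levels were low.

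Other innate cytokines, IL34, IL23A, TNFSF13 and IL16, changed in the same direction in all rabbits, which was a condition for naming them. IL34, a ligand of the macrophage growth factor receptor, was at 0.28, 0.93, -0.07 and -0.91 in mock and at 4.08, 4.16, 3.85 and 2.34 after stimulation (log2 FC 3.55 ± 0.36, adjusted p = 3.47e-08). CSF1, the other ligand of that receptor (2.001 ± 0.17, adjusted p = 2.61e-09), also rose, and IL12A, a subunit of IL-12, was at least 4.46-fold higher. In contrast IL23A, a subunit of IL-23 (-3.01 ± 0.51, adjusted p = 4.7e-05), TNFSF13, the B cell factor APRIL (-2.99 ± 0.28, adjusted p = 7.62e-09), and IL16, a chemoattractant of CD4 cells (-2.84 ± 0.31, adjusted p = 8.48e-08), fell. IL16 was at 4.77, 5.30, 5.18 and 6.50 in mock and at 2.48, 2.23, 2.83 and 2.85 after stimulation, with no overlap.

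Of 23 innate cytokines, 6 rose (26.1%, near the 22.1% of all genes) and 8 fell (34.8%, beside 11.5%), with a median of -0.38. With quantile normalization 3 rose, without rabbit 4 also 3, and without rabbit 2, 4 members fell. Without rabbit 5, 4 rose and 11 fell, with a median of -0.62. The median SD between rabbits was 0.77 in mock and 0.27 after stimulation for these genes, beside 0.21 and 0.18 over all genes, and it was larger in mock for 17 of the 23.

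CCL4, a chemokine of T cells and macrophages, was at 10.52, 9.96, 7.33 and 4.03 in mock and at 10.61, 10.29, 10.62 and 10.24 after stimulation. Its log2 FC of 2.48 ± 0.84, adjusted p = 0.0243 came almost wholly from rabbits 4 and 5, and the call was lost without either (2.21, adjusted p = 0.147, and 1.24, adjusted p = 0.163) and under 5 other settings. CCL20, the ligand of CCR6, was above background in no mock culture and at 1.88, 1.79, 1.25 and 0.79 after stimulation, at least 5.55-fold higher. CCL2, which attracts monocytes, rose from 6.31, 6.64, 4.53 and 5.26 to 8.15, 7.59, 7.95 and 8.92 (log2 FC 2.47 ± 0.60, adjusted p = 0.00217), with no overlap.

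CXCL8, which attracts neutrophils, was at 10.43, 9.83, 9.08 and 4.79 in mock and at 7.57, 6.60, 6.68 and 7.51 after stimulation, a log2 FC of -1.44 that was not called (adjusted p = 0.177). It was lower in 3 rabbits and higher in rabbit 5. Of 18 chemokines 5 rose (27.8%) and 1 fell (5.56%), near the 22.1% and 11.5% of all genes, and the median of 0.12 was -0.008 in the deposited table and -0.004 without rabbit 5. Without rabbit 4, 3 chemokines rose, as under quantile normalization, and without rabbit 5, 2 fell. CXCL8 itself was called lower without rabbit 5 (-2.83, adjusted p = 1.06e-05) and, with all rabbits, under quantile normalization (-2.09, adjusted p = 0.0406), after normexp (-2.09, adjusted p = 0.0451) and with array weights (-2.15, adjusted p = 0.00546).

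Cytokine and chemokine receptors moved in 1 direction: 24 of 44 fell and none rose, with a median log2 FC of -0.70, beside 11.5% of all genes called lower. The size of this median depended on the scaling, with -1.62 for the processed signal and -0.595 after normexp and quantile normalization. CXCR4, the receptor that keeps leukocytes in bone marrow and lymphoid tissue, was at 5.75, 6.15, 6.05 and 6.25 in mock and at 2.57, 2.32, 2.05 and 2.32 after stimulation (log2 FC -3.73 ± 0.22, adjusted p = 6.12e-12). The interferon receptors fell together, IFNGR2 (-3.70 ± 0.25, adjusted p = 4.27e-11), IFNAR2 (-3.26 ± 0.33, adjusted p = 2.78e-08), IFNGR1 (-2.59) and IFNAR1 (-1.40). All 4 mock cultures of CXCR4 lay close together and none came near the stimulated range.

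IL2RG, the common chain of the IL-2 family receptors, fell (-1.89 ± 0.46, adjusted p = 0.00199), as did IL7R of resting T cells (-1.21 ± 0.34, adjusted p = 0.00643) and IL10RB (-1.88). Receptors of myeloid cells were among the largest falls: CSF1R (-3.29 ± 0.35, adjusted p = 7.51e-08), CCR1 (-2.48) and the decoy IL1R2 (-3.90 ± 0.90, adjusted p = 0.00128). For IL1R2 the levels were 5.88, 5.64, 3.52 and 0.83 in mock and 0.93, 0.08, -0.51 and -0.22 after stimulation, and the mock culture of rabbit 5 lay within the stimulated range; without rabbit 5 the log2 FC was -4.85. The summed level of 15 monocyte markers fell from between 9.20 and 10.30 to between 6.74 and 7.40 over the same arrays, and its part in the change of the receptors was not tested.

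Class II MHC genes, which present antigen to CD4 T cells, fell steeply. CD74, the invariant chain, was at 5.65, 5.87, 5.35 and 7.72 in mock and at 1.36, 1.25, 1.45 and 1.76 after PMA-Ionomycin, 25.8-fold lower (log2 FC -4.69 ± 0.46, adjusted p = 1.46e-08). RLA-DR-ALPHA went from 4.26, 4.31, 3.90 and 5.73 to -0.25, 0.31, -0.18 and -0.17 (log2 FC -4.62 ± 0.38, adjusted p = 8.89e-10), HLA-DOA from 4.55, 5.19, 4.80 and 7.72 to 0.76, 0.82, 1.85 and 2.60 (log2 FC -4.06 ± 0.69, adjusted p = 4.6e-05) and RLA-DMA from 8.45, 9.01, 9.42 and 9.89 to 5.34, 5.39, 5.15 and 5.30 (log2 FC -3.90 ± 0.26, adjusted p = 3.33e-11). Rabbit 5 had the highest mock level of each, and no stimulated culture reached a mock level.

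RLA-DMB, the partner of RLA-DMA in loading peptides, had a log2 FC of -2.93, and of the transcription factors RFX5 fell (-0.75; not called without rabbit 2, -0.60, adjusted p = 0.118) and RFXAP rose (0.36; not called without rabbit 1, 0.31, adjusted p = 0.0731). Thus 6 of 7 members fell (85.7%, beside 11.5% of all genes), median -3.90 and -3.67 without rabbit 5. The stimulated cultures were at summed levels of 6.07 to 6.28 and the mock cultures at 9.06 to 10.63. The summed level of 10 B cell markers was 7.74 to 9.88 in mock and 7.37 to 8.29 after stimulation, that of the monocyte markers is given above, and their part in the change was not tested.

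Class I peptide loading did not follow. Of 13 genes 5 rose (38.5%) and 1 fell (7.69%), beside 22.1% and 11.5% of all genes, with PSMB9, a subunit of the immunoproteasome (2.25 ± 0.30, adjusted p = 2e-06), PSME3 (2.04 ± 0.14, adjusted p = 5.34e-11) and the transporter TAP1 (1.45 ± 0.38, adjusted p = 0.00388) higher and TAPBPL (-1.27 ± 0.22, adjusted p = 5.13e-05) lower. B2M, the light chain of class I molecules and a housekeeping gene of the study, was at 10.14, 10.55, 10.16 and 8.75 in mock and at 10.42, 10.85, 10.04 and 9.77 after stimulation (log2 FC 0.37, adjusted p = 0.502). The groups overlapped for B2M, and the median of the list, 0.31, turned to -0.08 under quantile normalization.

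Genes of monocytes and macrophages fell in 13 of 15 cases (86.7%, beside 11.5% of all genes), with a median log2 FC of -2.81. CD14, the LPS coreceptor of monocytes, was at 9.20, 8.57, 9.28 and 7.93 in mock and at 6.29, 4.73, 5.44 and 5.44 after stimulation, 9.65-fold lower (log2 FC -3.27 ± 0.33, adjusted p = 3.2e-08). CYBB, the catalytic subunit of the phagocyte NADPH oxidase, went from 5.56, 5.56, 6.07 and 4.24 to 0.91, 0.79, -0.02 and 0.50 (log2 FC -4.81 ± 0.32, adjusted p = 3.35e-11). FPR1, the receptor of formyl peptides, went from 7.38, 6.99, 4.94 and 2.75 to 0.90, -0.07, 0.06 and 1.35 (log2 FC -4.96 ± 0.68, adjusted p = 2.5e-06). CLEC7A, the beta-glucan receptor Dectin-1, was above background on no stimulated array and was at least 12.7-fold lower.

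The summed level of the 15 markers was 10.30, 9.97, 10.29 and 9.20 in the mock cultures of rabbits 1, 2, 4 and 5 and 7.40, 6.74, 6.90 and 6.85 after stimulation. Without rabbit 5, 12 of the 15 fell, with a median of -2.44. After stimulation CLEC7A was above background on no array, and 11 of the 15 markers stayed above it on all 4. The scavenger receptor MSR1 was called higher (1.24 ± 0.40, adjusted p = 0.0177), a call lost without rabbit 4 (1.16, adjusted p = 0.0918) and without rabbit 5 (0.67, adjusted p = 0.253). The call was also lost under quantile normalization (0.957, adjusted p = 0.0953 by limma), with the processed signal and after normexp. The same held with only the 8 arrays of the comparison and with array weights.

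Of 45 lysosome genes 40 were lower (88.9%, beside 11.5% of all genes) and 1 higher (2.22%, beside 22.1%), with a median log2 FC of -1.49. LIPA, the acid lipase, was at 3.91, 3.72, 4.04 and 4.16 in mock and at 0.12, -0.08, -0.38 and -0.30 after stimulation (log2 FC -4.12 ± 0.21, adjusted p = 9.68e-13). The proteases cathepsin H, CTSH (-3.11 ± 0.33, adjusted p = 6.04e-08), cathepsin B, CTSB (-2.78 ± 0.36, adjusted p = 1.17e-06), and cathepsin D, CTSD (-2.71 ± 0.34, adjusted p = 8.86e-07), the sphingolipid activator PSAP (-3.05 ± 0.29, adjusted p = 1.08e-08) and the membrane protein LAMP1 (-1.94 ± 0.26, adjusted p = 2.11e-06) fell in every rabbit. ATP6V0D2, a proton pump subunit of macrophages and osteoclasts, fell from 5.20, 5.92, 6.80 and 5.70 to 3.31, 3.30, 2.36 and 2.16 (log2 FC -3.13 ± 0.35, adjusted p = 1.37e-07). The ubiquitous pump subunit ATP6V1E1 had a log2 FC of -0.32, not called. The member called higher, CTSO, was above background on no array by most of its probes, and its call was lost on leaving out any rabbit (0.18 to 0.38). The monocyte markers fell over the same arrays, and their part in this result was not tested.

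S100, serum amyloid and antimicrobial proteins were among the largest falls. S100A8 was at 10.702, 9.09, 7.10 and 5.83 in the mock cultures and at 3.23, 0.23, -0.25 and 0.97 after stimulation, 141-fold lower (log2 FC -7.14 ± 0.81, adjusted p = 1.57e-07). The probes under MRP-8 gave a log2 FC of -6.85 ± 0.78, adjusted p = 1.82e-07, and both probes of S100A9 averaged -3.25 ± 0.57, adjusted p = 7.07e-05. The S100A9 probes, reverse complements of each other, had log2 FC of -5.90 and -0.60, so that their average describes neither. This average is the value counted in the lists. The mock levels of S100A8 spread from 5.83 in rabbit 5 to 10.702 in rabbit 1, yet every stimulated culture was lower than every mock culture.

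DEFB1, a beta-defensin, was at 5.44, 5.23, 6.24 and 5.33 in mock and at 0.10, 0.25, -0.19 and -0.10 after stimulation (log2 FC -5.54 ± 0.58, adjusted p = 4.21e-08). CAMP, the cathelicidin, was above background on no stimulated array and at least 16-fold lower, and ORM1, an acute phase glycoprotein, fell from 3.43, 4.43, 4.75 and 3.85 to -0.07, -0.72, -0.22 and -0.14 (log2 FC -4.40 ± 0.42, adjusted p = 9.85e-09). RBP4, the plasma carrier of retinol, also had only a limit after stimulation and was at least 39.3-fold lower than its mock levels of 4.27, 5.17, 5.36 and 3.44. Over the list 17 of 21 fell (81%, beside 11.5% of all genes) and none rose, median -2.13, and -2.04 without rabbit 5.

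**Figure D3:**
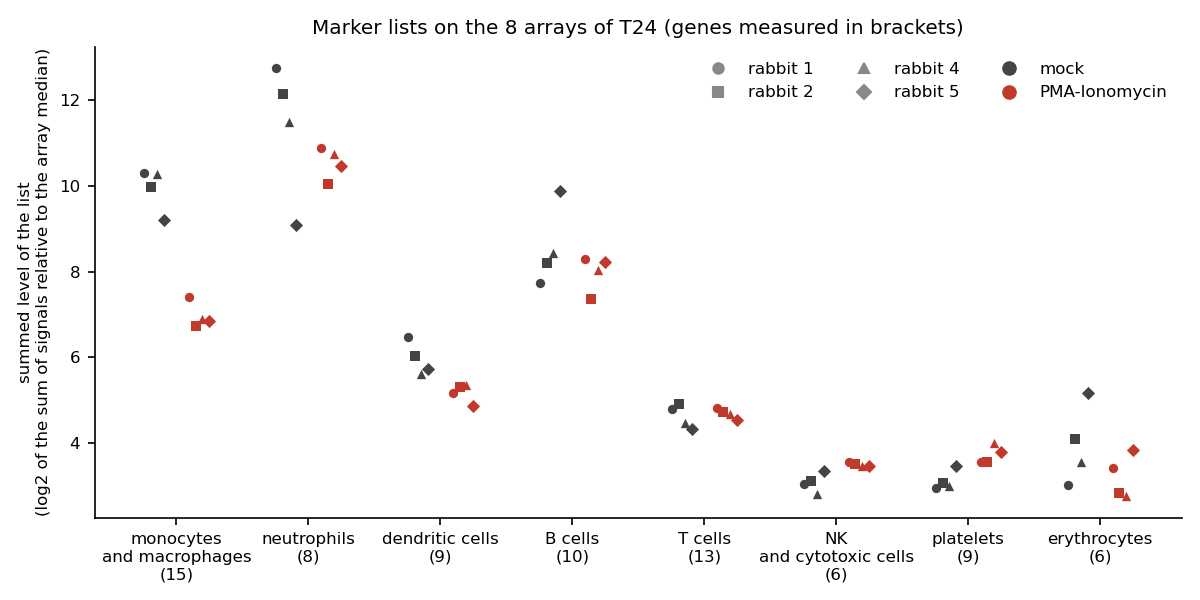
Summed level of 8 lists of cell type markers on each of the 8 arrays of T24 (y axis, log2 of the sum of signals relative to the array median), by rabbit, with the number of genes measured in brackets. The 4 stimulated cultures lie below the 4 mock cultures for monocytes and macrophages and for dendritic cells and above them for NK cells and platelets, and the mock culture of rabbit 5 is lowest for neutrophils and highest for B cells and erythrocytes.

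Markers of the other cell types moved less. Of 10 B cell markers 5 fell (50%, beside 11.5% of all genes) and 1 rose (10%, beside 22.1%), with a median of -0.44 and summed levels of 7.74 to 9.88 in mock, the highest in rabbit 5, and 7.37 to 8.29 after stimulation. Without rabbit 5, 4 fell and 1 rose, with a median of -0.083. FCRLA, a receptor-like protein of germinal centre B cells, fell from 5.57, 6.35, 6.79 and 7.67 to 2.88, 3.07, 1.58 and 2.23 (log2 FC -4.15 ± 0.38, adjusted p = 4.85e-09), and BLNK, an adaptor of the B cell receptor (-2.64 ± 0.36, adjusted p = 2.6e-06), and MS4A1, which is CD20 (-2.63 ± 0.23, adjusted p = 2.38e-09), fell too. The receptor component CD79B was not called (-0.29), and the kinase BLK rose (1.75 ± 0.34, adjusted p = 0.000243). The defining B cell markers thus did not move together.

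Of 13 T cell markers 2 were higher (15.4%, beside 22.1% of all genes) and 4 lower (30.8%, beside 11.5%; 2 lower without rabbit 5, 1 without rabbit 2), with summed levels of 4.33 to 4.90 in mock and 4.52 to 4.82 after stimulation. The defining markers CD3D and CD3E were not found by symbol and are not analysed here. CD2 (0.47; adjusted p = 0.00847 with the rabbit as a block) and CD8A (-0.28) were not called, and the called members had log2 FC between -0.81, for the adaptor LAT, and 1.08, for CD5. LAT was not called without rabbit 2 (-0.72, adjusted p = 0.12), and CD5 not without rabbit 1 (0.89, adjusted p = 0.174) or rabbit 4 (1.14, adjusted p = 0.068). CD4 was above background on no array of either group. Of 6 NK and cytotoxic markers 3 rose (50%, beside 22.1%), among them perforin, PRF1 (0.96 ± 0.26, adjusted p = 0.00442; without rabbit 1, 0.86, adjusted p = 0.0542), with summed levels of 2.80 to 3.33 in mock and 3.46 to 3.54 after stimulation. With the rabbit as a block 4 T cell markers rose, and with the processed signal 1 NK marker.

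Of 8 neutrophil markers 5 fell (62.5%, beside 11.5% of all genes), of which S100A8, S100A9 and CAMP are named above and MPO and LTF had smaller changes, and the summed level of 9.09 to 12.75 in mock and 10.05 to 10.88 after stimulation followed MMP9, a gelatinase also of macrophages (12.30, 11.92, 11.41 and 8.81 in mock, 10.87, 10.04, 10.75 and 10.46 after stimulation, log2 FC -0.58, not called). Of 9 dendritic cell markers 1 rose (11.1%, beside 22.1%), CD1C (2.15 ± 0.41, adjusted p = 0.000162), and 4 fell (44.4%), among them CD1B (-1.63 ± 0.37, adjusted p = 0.00104) and the integrin ITGAX (-1.29 ± 0.32, adjusted p = 0.00209). Of 9 platelet markers 2 rose (22.2%, beside 22.1% of all genes), TUBB1 (1.21 ± 0.38, adjusted p = 0.016) and ITGB3 (0.84), with none called without rabbit 1 (TUBB1 at 1.23, adjusted p = 0.086) or without rabbit 4 (0.84, adjusted p = 0.0747). Of 6 erythrocyte markers 1 fell (16.7%, near the 11.5% of all genes), SLC4A1 (-0.40; without rabbit 2, -0.32, adjusted p = 0.0799), and the beta globin HBB2 was not called (-1.17, adjusted p = 0.3; 0.00915 with the rabbit as a block). The erythrocyte sum was highest in the mock culture of rabbit 5, at 5.17.

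Of 28 interferon response genes 1 was higher at T24 (3.57%, beside 22.1% of all genes) and 6 lower (21.4%, beside 11.5%), with a median of -0.05. IRF5, a factor of innate signalling, fell from 5.72, 5.73, 6.40 and 6.57 to 4.67, 4.51, 4.66 and 4.35 (log2 FC -1.55 ± 0.25, adjusted p = 2.68e-05), and PARP14 (-1.36 ± 0.26, adjusted p = 0.000218), OAS2 (-0.89 ± 0.21, adjusted p = 0.00138) and IRF9 (-0.88 ± 0.25, adjusted p = 0.00701; without rabbit 2, -0.67, adjusted p = 0.128) fell as well. The typical induced genes ISG15 (0.84) and USP18 (0.87) were not called, the latter except without rabbit 1 (1.26, adjusted p = 0.0435). The mock levels varied, with a median SD of 0.55 over the list, and without rabbit 5, 11 of the 28 were called lower. Of 18 genes of the Toll-like receptor pathway 6 fell (33.3%) and 1 rose (5.56%), beside 11.5% and 22.1% of all genes: the inhibitor IRAK3 (-1.91 ± 0.17, adjusted p = 3.51e-09), LY96, which carries LPS to TLR4 (-1.61 ± 0.42, adjusted p = 0.00395), and TLR2 (-0.97 ± 0.29, adjusted p = 0.0121) were among the falls, NOD1 was the rise (0.60; not called under quantile normalization, 0.31, adjusted p = 0.0732, or with the processed signal, 0.33, adjusted p = 0.158), and TLR4 was not called (-0.21). Without rabbit 4 neither LY96 (-1.41, adjusted p = 0.0526) nor TLR2 (-0.80, adjusted p = 0.14) was called, and 3 members fell; 10 members fell with the processed signal and 10 in the deposited table.

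Genes of cell death rose and fell. Of 20 members of the BCL2 family and death receptor list, 9 rose (45%, beside 22.1% of all genes) and 5 fell (25%, beside 11.5%). The survival factor BCL2L1, also Bcl-xL, went from 0.28, -0.98, -0.79 and -0.76 to 0.64, 0.53, 0.77 and 0.78 (log2 FC 1.24 ± 0.25, adjusted p = 0.00029), and the BH3-only protein BCL2L11 (0.69) also rose. CASP1, which processes IL-1 beta, fell from 0.97, 1.32, 1.42 and 0.69 to -0.17, -0.30, -0.62 and -0.55 (log2 FC -1.51 ± 0.19, adjusted p = 5.56e-07), and the effector BAX fell (-0.97). The median of 0.09 turned to -0.08 under quantile normalization, -0.09 with the processed signal and -0.05 in the deposited table.

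Among matrix proteases, their inhibitors and coagulation genes, 9 of 25 rose (36%, beside 22.1% of all genes) and 6 fell (24%, beside 11.5%). F3, tissue factor, which starts coagulation, was at 3.83, 2.39, -0.36 and -1.0 in mock and at 5.92, 5.29, 5.41 and 5.10 after stimulation (log2 FC 4.22 ± 0.89, adjusted p = 0.000517), and without rabbit 5 at 3.59. It rose in all 4 rabbits, most where mock was low. MMP10, a stromelysin, was at least 8.95-fold higher, MMP3 rose (2.001 ± 0.37, adjusted p = 0.000124) and so did the urokinase PLAU (2.09 ± 0.56, adjusted p = 0.00479).

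SPP1, osteopontin, rose from 7.79, 7.06, 7.21 and 3.47 to 9.99, 9.75, 8.78 and 7.97 (log2 FC 2.74 ± 0.70, adjusted p = 0.00301), with the mock culture of rabbit 5 far below the others; without it the log2 FC was 2.15. MGP, an inhibitor of calcification, was above background on no stimulated array by most of its probes; it went from 5.08, 5.09, 6.32 and 4.42 to -0.43, -0.27, -0.60 and -0.83 (adjusted p = 1.73e-12), and the 2 of its 9 probes that were above background on all arrays fell by 4.93 and 6.04 on the log2 scale. MMP14, a membrane-bound metalloproteinase, fell (-1.87). MMP9, not called with all rabbits, was called lower without rabbit 5 (-1.33, adjusted p = 0.0013).

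**Figure D4:**
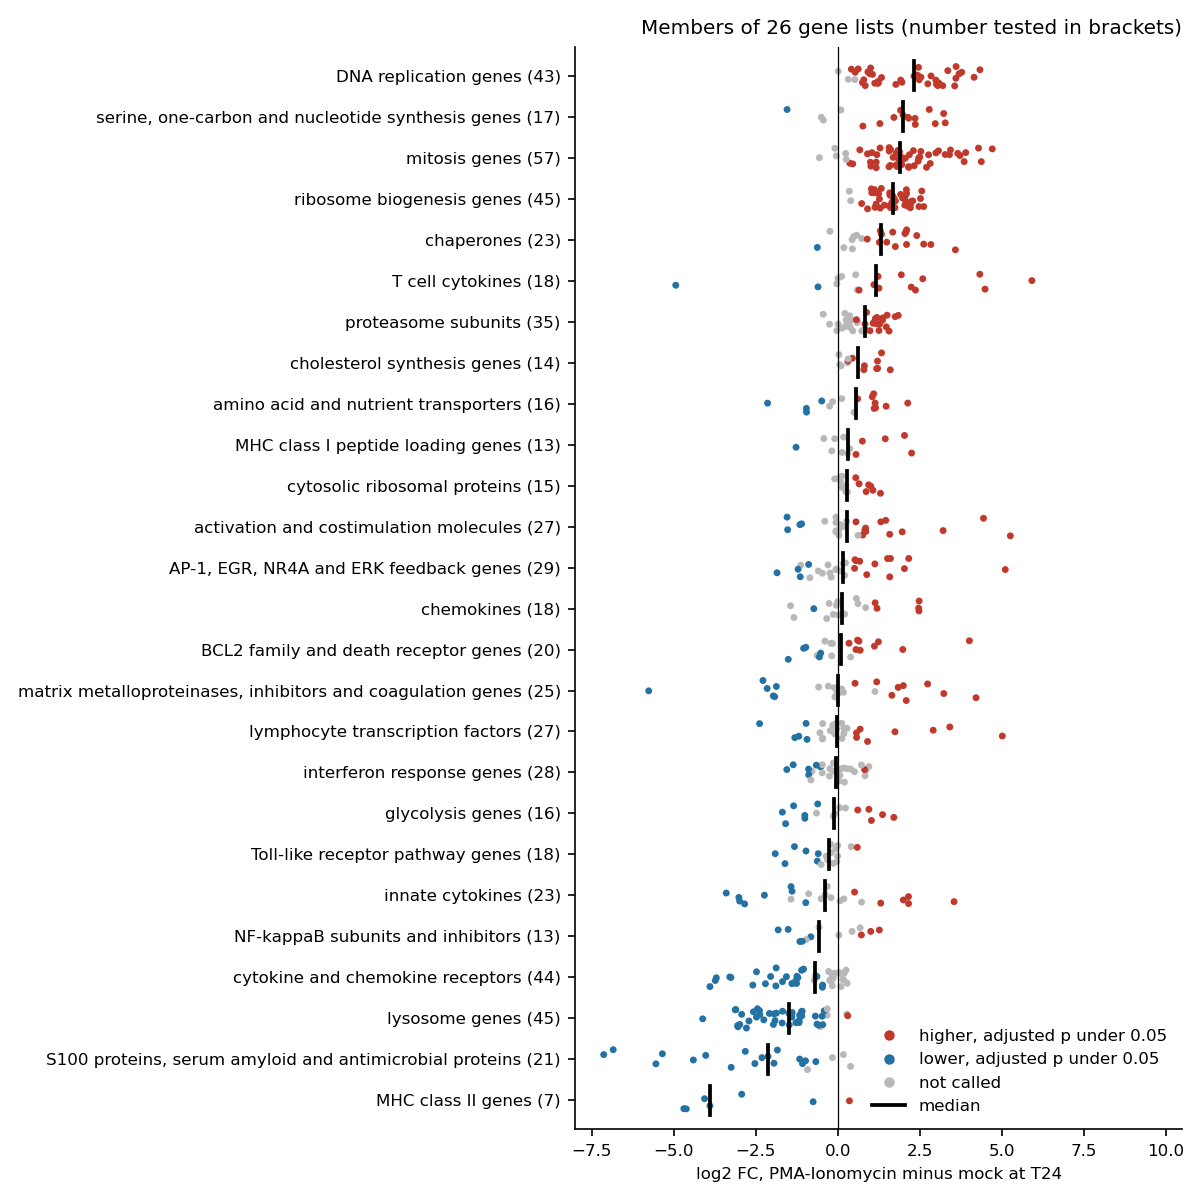
Log2 FC of each tested member of 26 gene lists after PMA-Ionomycin against mock at T24 (x axis), 1 row for each list with the number tested in brackets, coloured by call and ordered by the median (black bar). DNA replication, mitosis and ribosome biogenesis lie to the right of 0 for nearly all members, and receptors, lysosome, S100 and class II MHC genes to the left.

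Several of the largest changes belong to none of the lists above. BCO2 was above background in no mock culture (-0.72, -0.86, -0.58 and -1.09) and at 5.09, 4.74, 4.86 and 5.42 after stimulation, at least 57.5-fold higher (adjusted p = 9.82e-14). TM4SF5, a tetraspanin-like membrane protein, fell from 4.82, 4.82, 4.88 and 4.29 to -0.08, 0.0, -0.70 and 0.15 (log2 FC -4.86 ± 0.33, adjusted p = 5.9e-11), and PID1, an adaptor that dampens insulin signalling, was at least 30.1-fold lower. SERPINB1, an inhibitor of neutrophil proteases, went from 7.25, 7.01, 6.64 and 6.60 to 2.70, 2.08, 1.998 and 2.70 (log2 FC -4.51 ± 0.35, adjusted p = 3.42e-10). In these 4 genes the groups were far apart in every rabbit.

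The response at T24 was also set against that at T4, where each time has mock cultures of its own. The difference between both responses (the interaction of stimulation and time) passed the test for 6508 genes (22.5%), more positive at T24 for 4149 (14.4%) and more negative for 2359 (8.17%). With the processed signal 47.3% of these were more negative, against 36.2% here. Of the genes up-regulated at T24, 2310 were also up-regulated at T4, 3376 were not called at T4 and 703 were down-regulated at T4. Of those down-regulated at T24, 975 were so at T4 as well and 257 had been up-regulated.

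Most cell cycle genes had a more positive response at T24 than at T4. Mitosis genes had a median log2 FC of -0.62 at T4, and the response was more positive at T24 for 51 of 57, beside 14.4% of all genes. For CDK1 the log2 FC was -1.03 at T4 and 4.71 at T24 (difference 5.74, adjusted p = 3.69e-10). The DNA replication genes had a median of -0.02 at T4, and 34 of 43 were more positive at T24. MCM6, at 0.33 at T4, had a difference of 3.83 (adjusted p = 1.71e-08). Ribosome biogenesis genes had in contrast a median of 1.86 already at T4. Of these 45 genes 6 were more positive at T24, near the 14.4% of all genes, and 8 more negative, beside 8.17%. NPM1 of the nucleolus was at log2 FC 1.86 at T4 and 2.10 at T24 (adjusted p of the difference = 0.664).

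Proteasome genes were more positive at T24 for 12 of 35 and more negative for none, and chaperones for 9 and 1 of 23, beside 14.4% and 8.17% of all genes. BCO2, at least 57.5-fold higher at T24, was at T4 above background in the 4 mock cultures and in none of the stimulated ones, where its level is only a limit. Its fitted log2 FC at T4 was negative (adjusted p = 1.02e-05) and the difference between the times passed the test (adjusted p = 3.23e-12), but its size is not known, since each response is set against a limit. LAG3 went from 1.55 to 4.45 and CD70 from 1.81 to 5.26, both more positive at T24.

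T cell cytokines were more negative at T24 for 8 of 18 and more positive for 1, LTA (-0.33 and 0.65), beside 8.17% and 14.4% of all genes. The T24 value of LTA was 0.067 under quantile normalization (adjusted p = 0.796) and 0.36 with the processed signal (adjusted p = 0.0928). IL13 and IL2 were above background in no mock culture of either time, so that the size of their difference is not known. After stimulation IL13 was at a mean level of 6.24 at T4 and 1.17 at T24 (adjusted p of the difference between the responses = 6.4e-11), and IL2 at 4.55 and 3.44 (adjusted p = 0.00551). For CSF2 the log2 FC was 7.88 at T4 and 5.92 at T24, for IL4 6.79 and 4.33, and for IL10 5.13 and 1.94. IL13, CSF2, IL4 and IL2 were still called higher than mock at T24, and all 5 genes had a more negative response than at T4 by the test, while the T24 call of IL10 was lost without rabbit 4 or rabbit 5.

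The AP-1, EGR, NR4A and ERK feedback list, which also holds RGCC, RASGRP1 and the protein kinase C isoforms, had a median of 1.38 at T4. Of its 29 genes 18 had a more negative response at T24 (beside 8.17% of all genes), none a more positive one (beside 14.4%). EGR1 had a log2 FC of 2.33 at T4 and 0.10 at T24, FOS 1.81 and 0.17, and NR4A2 4.30 and 2.17. RGCC did not pass the test of the difference (5.09 and 5.11, adjusted p = 0.985). NFKBID, at 6.02 at T4, was at 1.27 at T24.

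Of the 3319 genes down-regulated at T24, 1352 had a response that was more negative at T24 than at T4 by the test of the difference. For CD74 the log2 FC was -0.32 at T4 and -4.69 at T24 (difference -4.38, adjusted p = 1.78e-05), and for RLA-DR-ALPHA -0.47 and -4.62. Lysosome genes had a median of 0.02 at T4, and 34 of 45 were more negative at T24, beside 8.17% of all genes. ATP6V0D2 changed direction, from 2.51 to -3.13. DEFB1 (0.20 and -5.54), MGP (-0.35 and -5.76) and S100A8 (-2.40 and -7.14) were more negative as well. Most MGP probes were not above background after stimulation at T24, so that the size of its change rests partly on values near background. CD14 had already fallen at T4 (-3.005), and its difference between the times did not pass the test (adjusted p = 0.824). LTB (-4.12) and IL16 (-4.14) had fallen at T4 as well.

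Interferon response genes went the other way. Of 28 members 15 had a more positive response at T24 than at T4 (beside 14.4% of all genes). The median log2 FC was -1.39 at T4 and -0.05 at T24. Platelet markers had a median of -1.60 at T4, and 6 of 9 were more positive at T24, beside 14.4% of all genes.

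**Figure D5:**
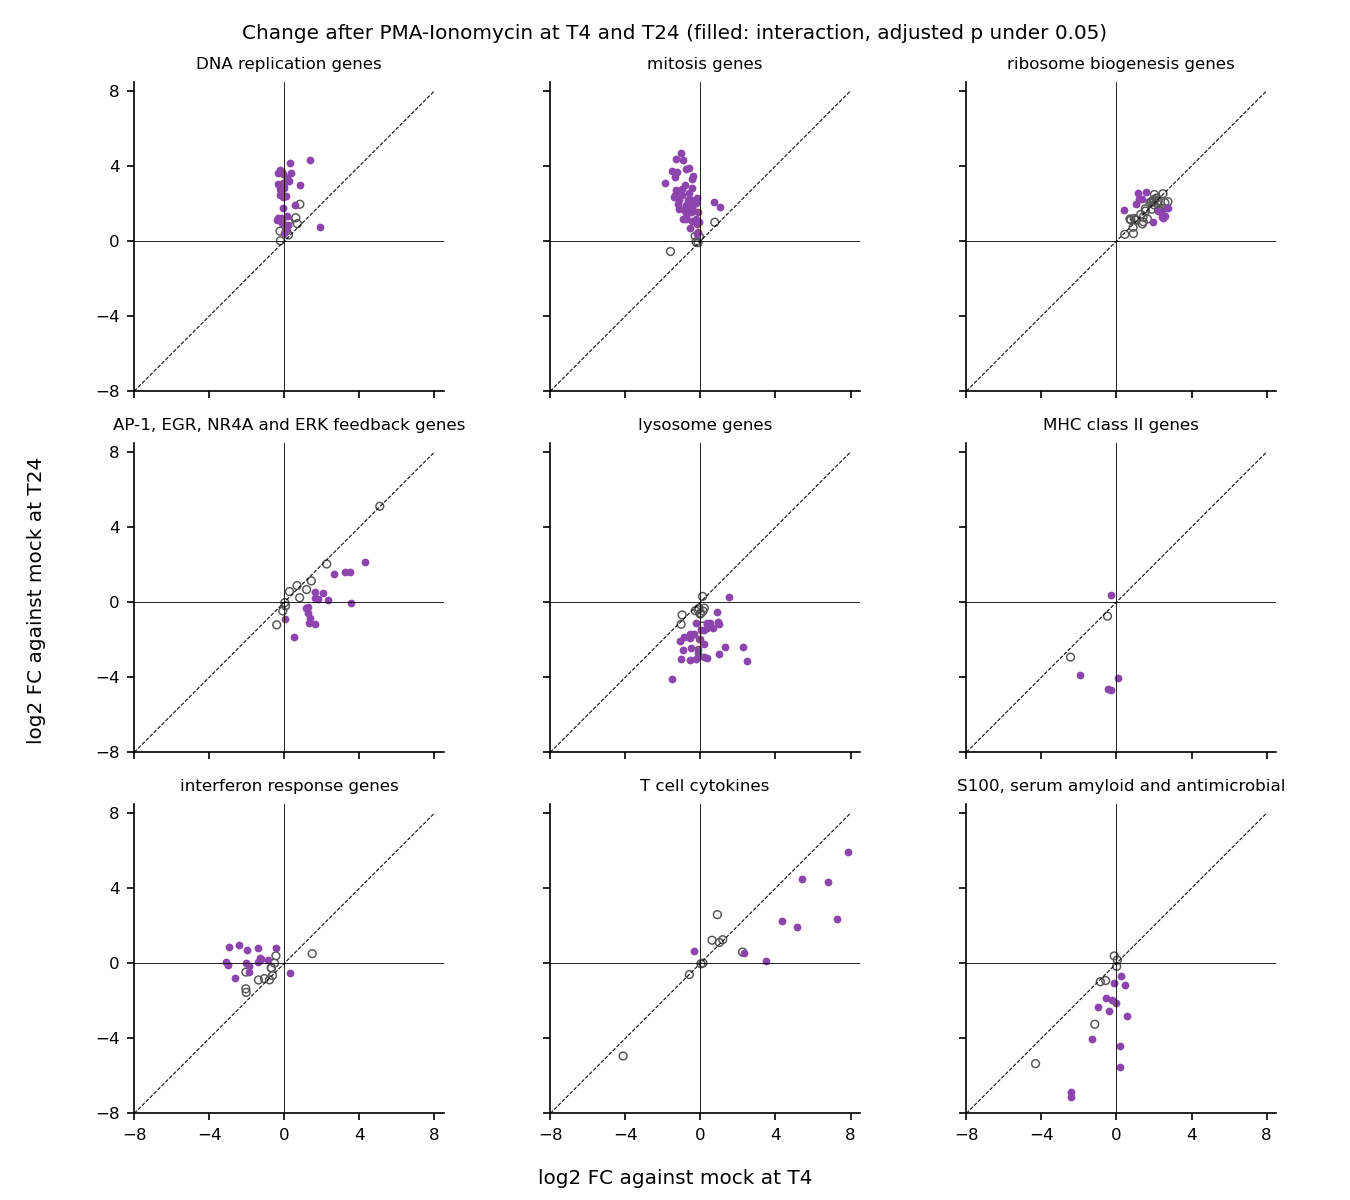
Log2 FC after PMA-Ionomycin against mock at T4 (x axis) and T24 (y axis) for the members of 9 gene lists, each point 1 gene and the dashed line equality; filled points passed the interaction test (adjusted p under 0.05). Cell cycle genes lie near or left of 0 at T4 and above 0 at T24, lysosome and class II MHC genes lie below the line, and most genes of the AP-1, EGR, NR4A and ERK feedback list lie below it.

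Against LPS cultures of the same time, 10431 genes differed (36.1%), 6823 higher after PMA-Ionomycin (23.6%) and 3608 lower (12.5%). With the processed signal 52.1% of the differing genes were lower, against 34.6% here. The stimulated arrays are the same as in the comparison with mock and the mock arrays are shared with LPS against mock, so that these values are given side by side. Cell cycle genes were higher after PMA-Ionomycin: 52 of 57 mitosis genes and 38 of 43 DNA replication genes passed the test upward, and their median log2 FC of LPS against mock was 0.18 and 0.20. Ribosome biogenesis genes were higher for 43 of 45.

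Of 23 innate cytokines 11 were lower than after LPS and 4 higher, and of 18 chemokines 2 were lower and 3 higher, beside 12.5% and 23.6% of all genes. IL1B had a log2 FC of 4.16 after LPS (adjusted p = 0.00425) and -3.40 after PMA-Ionomycin, a direct difference of -7.56 (adjusted p = 2.52e-08). S100A8 differed by -9.92, ORM1 by -7.40, IL23A by -6.71 and CXCL8 by -3.57, all lower after PMA-Ionomycin. IL6 (4.73 after LPS, 2.16 after PMA-Ionomycin) and IL10 (4.12 and 1.94) differed directly by -2.57 and -2.18. TNF, CCL4 and F3 did not differ between the stimulations by the test, with differences of 0.10, -0.70 and -1.41 and adjusted p of 0.949, 0.63 and 0.26.

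LPS cultures were also lower than mock in a few of the genes above. DEFB1 had a log2 FC of -2.80 after LPS (adjusted p = 0.0111), CLEC7A of -2.65 (adjusted p = 1.47e-05) and ATP6V0D2 of -2.82 (adjusted p = 5.26e-05), and for ATP6V0D2 the difference between the stimulations did not pass the test (-0.31, adjusted p = 0.604). The T cell genes CSF2 and CD70 were higher than after LPS by 4.51 and 4.38. IL2, at a mean level of 3.44 after PMA-Ionomycin, was above background on no LPS array, so that the size of its difference is not known (adjusted p = 6.89e-15). Class II MHC genes were lower than after LPS for 6 of 7, beside 12.5% of all genes, and LPS left CD74 at 0.24 (adjusted p = 0.969).

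The rabbits responded alike over all genes. The correlation across genes of the differences between stimulated and mock cultures was between 0.73 and 0.88 for the 6 pairs of rabbits, a description only, since genes are not independent replicates. The arrays of each comparison lie on 3 slides, and the difference within a slide correlated with the pooled log2 FC at 0.93 to 0.95, again a description, since the pooled value holds the same arrays. On each slide the stimulated and the mock arrays of T24 came from different rabbits, with 1 or 2 arrays a side. The differences within a slide therefore also cross rabbits. The spread between rabbits was larger in mock than after stimulation for 17539 of all 28884 genes (60.7%). It was larger in mock for 14 of 14 cholesterol synthesis genes, 28 of 35 proteasome genes, 34 of 45 lysosome genes, 25 of 29 genes of the AP-1 list, 15 of 18 chemokines, 23 of 28 interferon response genes, 13 of 15 monocyte markers and 7 of 7 class II MHC genes. For mitosis genes it was larger in mock for 23 of 57.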

How the data were processed

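PBMCs of 4 rabbits were measured on 24 one-colour Agilent arrays, of which the 8 of PMA-Ionomycin and mock at T24 are described here. The authors extracted the spot intensities with Agilent Feature Extraction 10.7.3.1 and deposited the median signal intensity of each spot. A second deposited file holds log2 values. Each matched the log2 of the spot's median signal after subtracting its array's mean (largest difference 9.9e-09), and it served only as an alternative. Of 61657 spots other than controls, outlier spots were left out. Log2 median signals were centred on the array median without background subtraction, averaged over the spots of each of 42089 probes, and over the probes of each of 28884 genes or identifiers. Symbols came from RefSeq accessions or gene names in the files, 9570 in all; GAPDH, CD69, TBX21, S100A12, CD3D and CD3E were not found by symbol and are not analysed here. Coordinates are those of the files on oryCun2.

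Following the study's methods, which name stimulation and time as factors, limma 3.58.1 in R 4.3.3 was fitted to the means of all 6 groups over the 24 arrays. No block was fitted, since the methods mention none. For the false discovery rate, Benjamini-Hochberg adjustment was chosen here, over all genes and with a threshold of 0.05. The comparisons were PMA-Ionomycin against mock and against LPS at T24, and the interaction with T4. The method was tested on simulated data. Nothing in the labels says that cultures of 1 rabbit were repeated, so that n counts rabbits. The same rabbits are in every group: deviations from the group means correlated between mock and PMA-Ionomycin cultures of the same rabbit at 0.26, -0.03, -0.07 and 0.32, and a rabbit block was therefore fitted as an alternative, beside other scalings, background corrections, probe filters, array sets, slide blocks and leaving out each rabbit. An array has no read depth; the number of arrays and the signal over background limit the precision.

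The 26 gene lists held 1039 members, of which 657 were found on the array, and 8 lists of cell type markers were used beside them. Members and lists were chosen with earlier results of these data known. The genes named are the 15 largest rises and falls with a symbol that changed alike in 4 of 4 rabbits and rose above background on every array of whichever group was brighter, up to 4 such genes of each list, the qRT-PCR genes of the study and, chosen after their values were seen, other list members given with values. A bound was taken on each array from the dimmest probe that was still well above background, or from the gene itself where that was higher. A few list members are counted in their lists but not reported here by name.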

Additional observations from a re-analysis of the deposited data

Results flagged for a closer look

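Of 404 groups of 4 rabbits tested (the mock and the PMA-Ionomycin cultures of T24 for 202 named genes), 28 held 1 rabbit far from the other 3 by Dixon's ratio (6.93%), where chance alone marks about 5%. The mock culture of rabbit 5 stood apart in TM4SF5 (4.29, against 4.82 to 4.88), IKZF3 (4.96, against 2.57 to 2.93), PSMC6 (4.46, against 5.02 to 5.08), HSPD1 (3.67, against 4.12 to 4.19), CTSH (8.69, against 9.61 to 9.75), FAS (0.46, against 1.76 to 2.02), LY96 (4.45, against 6.01 to 6.10), SPP1 (3.47, against 7.06 to 7.79), ADSS2 (2.47, against 3.76 to 3.79), CD274 (2.09, against 4.06 to 4.45) and CTSD (5.42, against 6.20 to 6.30). The PMA-Ionomycin culture of rabbit 2 stood apart in RLA-DR-ALPHA (0.31, against -0.25 to -0.17), IL6 (4.84, against 4.49 to 4.51), RFC4 (6.71, against 6.35 to 6.40), NCAPG2 (3.94, against 4.64 to 4.73), PFKP (3.48, against 4.16 to 4.25), ACAT2 (5.45, against 5.82 to 5.90), IRF9 (-0.18, against 0.24 to 0.29) and FAS (3.76, against 3.38 to 3.43). The PMA-Ionomycin culture of rabbit 1 stood apart in WDR12 (5.30, against 4.99 to 5.04), SLC16A1 (0.64, against 0.92 to 0.94) and PRF1 (1.98, against 1.54 to 1.61). The mock culture of rabbit 2 stood apart in ORC6 (-0.11, against 0.14 to 0.19) and SLC4A1 (-0.27, against -0.52 to -0.48). The PMA-Ionomycin culture of rabbit 5 stood apart in IL34 (2.34, against 3.85 to 4.16). The PMA-Ionomycin culture of rabbit 4 stood apart in NOL9 (1.21, against 1.43 to 1.46). The mock culture of rabbit 4 stood apart in IL7R (2.21, against 1.96 to 2.0). The mock culture of rabbit 1 stood apart in MYD88 (4.33, against 4.09 to 4.12). The levels of rabbit 5 in mock are those of the culture described in the report as standing apart. Of 6 groups of array measures (spots well above background, outlier spots and median signal), none held such an array.

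The change after PMA-Ionomycin differed between T4 and T24 by limma's test of the interaction for 31 of the 47 genes tested here (the largest rises and falls, the qRT-PCR genes and the genes whose difference is printed in the report), 11 in the positive and 20 in the negative direction, beside 22.5% of all genes. Since some of these genes were named because they passed, nothing is read from that count. The log2 FC at T24 minus that at T4 was positive for BCO2 (7.60), CDK1 (5.74), NCAPG (5.70), CCNB1 (5.25), MCM6 (3.83), CD70 (3.46), ORC6 (2.96), LAG3 (2.89), IL16 (1.30), ZBTB32 (1.22) and LTA (0.98). It was negative for DEFB1 (-5.75), ATP6V0D2 (-5.63), MGP (-5.41), IL13 (-4.88), NFKBID (-4.75), S100A8 (-4.74), ORM1 (-4.62), MRP-8 (-4.45), CD74 (-4.38), RLA-DR-ALPHA (-4.15), SERPINB1 (-3.51), IL10 (-3.20), CYBB (-2.69), IL4 (-2.46), FCRLA (-2.39), EGR1 (-2.23), NR4A2 (-2.13), CSF2 (-1.96), FOS (-1.64) and IL2 (-0.90). The values of BCO2, IL2 and IL13 are fitted differences that rest on limits near background. Those of MGP (after stimulation at T24) and CSF2 (in mock at T24) rest partly on values near background. The positive value of IL16 is a fall that was smaller at T24 than at T4.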

How the results depend on the processing

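Requiring a fold change of at least 2 left 4710 called genes at T24, 3263 up-regulated and 1447 down-regulated. The down-regulated genes numbered 5426 with the processed signal and 5118 in the deposited log2 table. When single probes were tested, 14551 of 42089 were called and 5143 of these were lower, 35.3% of the calls against 34.2% over genes. The processed signal also gave 5581 genes below LPS. The scaling moved the median log2 FC of all genes from 0.03 to -0.26 (processed signal) and -0.12 (deposited table), so that directions near 0 are relative to that shift. Over the 17734 genes left without dim probes it was 0.13. Leaving out 1 rabbit gave 7957 to 9073 called genes at T24 (5340 to 5985 up, 2608 to 3088 down), 4526 to 6491 for the interaction (2888 to 4242 positive, 1464 to 2249 negative, the lowest without rabbit 4) and 8545 to 10168 against LPS (5759 to 6656 above, 2746 to 3512 below). With the rabbit as a block 10531 genes were called (9664 of the 9708 kept), 7515 for the interaction and 11310 against LPS; with the block and only the 8 arrays of the comparison, 9939. CD2, GNL3L, NOL9 and HBB2 became called with the block, and RFXAP and SLC4A1 lost their calls with the block on the 8 arrays; it changed no other call of a named gene. Quantile normalization kept 8084 of the calls and the processed signal 7900.

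Of 3433 values of 202 named genes under an alternative, 3303 kept their direction and their call, 108 lost the call and 17 gained it, and 5 changed direction, all of genes that were not called: CD79B (0.136 with array weights, and -0.685 to 0.13 when 1 rabbit was left out, the highest without rabbit 5), EGR1 (-0.22 with the processed signal, -0.048 in the deposited table) and ISG15 (-0.081 to 1.354 when 1 rabbit was left out, the lowest without rabbit 5). Of these genes 155 kept direction and call under every alternative run. With 4 rabbits a group, small differences are not detectable, and near background the signal sets a floor: 238 genes above background on all mock arrays had only a limit after stimulation, and the reverse held for 289. The causes of the changes with scaling were not tested.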
